A study of Homo sapiens with 4 samples.

Results

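The region was the 2 Mb of chromosome 6 from 26000001 to 28000000 (hg19) that holds the large cluster of human histone genes. It was studied in a genome-wide table of 500 bp windows from an enrichment assay for modified cytosine in FaDu cells (FADU in the labels), an epithelial line grown from a hypopharyngeal squamous cell carcinoma. Its members were chosen by position alone, as every window of the table that lies within these 2 Mb, which gave 779 of the 956365 windows of the table and 779 of the 4000 windows of 500 bp that tile the region. The study used 4 libraries of genomic DNA, 1 per condition: scrambled control cells under hypoxia (1% O2 for 18 h), TET1-si cells (knockdown of TET1, an enzyme that oxidizes 5-methylcytosine to 5-hydroxymethylcytosine) under hypoxia (1% O2 for 19 h in the labels), scrambled control cells under normoxia and TET1-si cells under normoxia. All 4 came from the same line, which limits them as a model of other cells.

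The 4 columns of read counts in the table are named by codes that match no sample, so no column could be tied to a condition and no value of them was used. The measurement was therefore whether a window is in the table. The name of the table carries a tag that reads as a minimum, but what it applied to is not given in the sources used here, so a window outside the table may still have had reads, and a window in the table cannot be tied to hypoxia or to TET1 knockdown. The labels name hMeDIP-seq, an enrichment for 5-hydroxymethylcytosine (5hmC), but their protocol describes an antibody to 5-methylcytidine. The methods of the study instead describe sequencing of 5hmC-enriched DNA, with chemical labelling of 5hmC and capture through biotin. In those methods the 5-methylcytidine antibody serves a separate assay read by real-time PCR. The modification behind the windows is thus called modified cytosine here.

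Core histones H2A, H2B, H3 and H4 form the protein spool of the nucleosome, and the linker histone H1 binds where DNA enters and leaves it. Most genes of this cluster are replication-dependent: they are short, lack introns and are transcribed mainly in S phase, when new chromatin is assembled. Many H2A and H2B genes lie head to head and share the DNA between them as a promoter. Their promoters are often rich in CpG sites and commonly hold a TATA box, CCAAT boxes and, in H2A and H2B genes, an octamer bound by OCT1. Active CpG-rich promoters usually carry little cytosine methylation.

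Within the 2 Mb there were 53 protein-coding histone genes, with 6 of H1, 11 of H2A, 14 of H2B, 10 of H3 and 12 of H4. The sequence upstream of the start is shown first for the 3 of them whose start lies in a window of the table, H1-1, H2BC3 and H1-6, and for H4C12, whose start window has 49 CpG sites, the highest number among the histone genes, and is not in the table. Each is the 250 bp before the start, read from GRCh37, which has the coordinates of hg19 on this chromosome, on the strand of the gene and from 5′ to 3′. Capitals mark CpG sites. Of the 50-base sequences within the H4C12 gene, 7.40% occur once in the genome, against 100% in each of the other 3 genes. Reads with more than 1 position were not kept in the mapping, so the absence of H4C12 cannot be read against its CpG number.
H1-1, chr6:26018016-26018265, strand -: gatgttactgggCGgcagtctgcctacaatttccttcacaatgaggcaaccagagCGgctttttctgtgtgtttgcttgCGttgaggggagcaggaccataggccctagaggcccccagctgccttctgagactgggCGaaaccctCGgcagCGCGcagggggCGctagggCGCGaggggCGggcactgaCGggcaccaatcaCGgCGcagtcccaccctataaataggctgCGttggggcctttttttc
H2BC3, chr6:26043942-26044191, strand -: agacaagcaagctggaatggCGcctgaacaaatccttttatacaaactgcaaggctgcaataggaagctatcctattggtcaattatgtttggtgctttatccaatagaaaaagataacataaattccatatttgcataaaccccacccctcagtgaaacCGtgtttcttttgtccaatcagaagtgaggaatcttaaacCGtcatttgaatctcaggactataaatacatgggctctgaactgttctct
H1-6, chr6:26108364-26108613, strand -: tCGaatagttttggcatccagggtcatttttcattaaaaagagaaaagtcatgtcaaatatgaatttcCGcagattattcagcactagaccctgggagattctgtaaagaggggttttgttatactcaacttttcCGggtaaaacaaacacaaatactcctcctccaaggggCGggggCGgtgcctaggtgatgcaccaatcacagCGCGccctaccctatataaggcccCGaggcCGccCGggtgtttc
H4C12, chr6:27799339-27799588, strand -: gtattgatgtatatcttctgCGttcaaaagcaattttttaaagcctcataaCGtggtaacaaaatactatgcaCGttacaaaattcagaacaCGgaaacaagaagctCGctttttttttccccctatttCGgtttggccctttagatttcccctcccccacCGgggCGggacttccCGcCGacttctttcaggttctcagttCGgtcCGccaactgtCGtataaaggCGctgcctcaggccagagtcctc

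The H1-1 sequence holds 15 CpG sites, that of H2BC3 3, that of H1-6 10 and that of H4C12 14. The start windows had 24, 20 and 24 CpG sites for H1-1, H2BC3 and H1-6.

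The DNA between 9 head-to-head pairs of an H2A and an H2B gene was 193 to 250 bp long and held 4 to 11 CpG sites. None of the 11 windows that overlap it was in the table. These windows had 16 to 35 CpG sites. Of all autosomal windows in that range 50.5% were in the table, without regard to GC content. Of the windows with the start of another autosomal protein-coding gene 27.9% were in the table, without regard to CpG number or GC content. Within 1000 bp of a histone start, in the clusters defined below, CpG number and GC content together predicted lower shares than 50.5%. These were 30.8% for windows with 16 to 30 CpG sites and 32.5% for those with 31 or more. The 11 windows as a set were not matched for GC content. They are few and were not split by uniqueness. Some genes of these pairs have near copies: 33.7% of the 50-base sequences of H2AC14 were unique, 36.5% of those of H2AC13 and 42.8% of those of H2BC12. A pair with many CpG sites, a pair with few and the shortest pair are shown on the + strand, whole from the start of one gene to the start of the other, with CpG sites in capitals.
H2BC11/H2AC11, chr6:27100575-27100821, strand +: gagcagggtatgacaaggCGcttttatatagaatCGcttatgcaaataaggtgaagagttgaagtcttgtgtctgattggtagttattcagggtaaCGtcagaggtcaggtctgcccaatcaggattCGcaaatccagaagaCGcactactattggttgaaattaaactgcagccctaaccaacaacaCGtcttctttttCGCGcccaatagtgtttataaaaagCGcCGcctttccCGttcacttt
H2BC4/H2AC6, chr6:26124155-26124399, strand +: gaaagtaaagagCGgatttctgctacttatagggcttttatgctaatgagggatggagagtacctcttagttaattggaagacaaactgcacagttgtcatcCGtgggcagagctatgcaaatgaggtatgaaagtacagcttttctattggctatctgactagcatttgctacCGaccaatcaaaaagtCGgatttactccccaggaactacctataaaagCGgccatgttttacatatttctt
H2AC15/H2BC15, chr6:27806154-27806346, strand +: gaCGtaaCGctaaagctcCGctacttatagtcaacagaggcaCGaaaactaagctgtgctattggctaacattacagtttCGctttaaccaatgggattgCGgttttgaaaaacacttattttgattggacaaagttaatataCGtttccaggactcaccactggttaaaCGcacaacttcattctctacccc

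Of the 9 spacers, all 9 held CCAAT, 7 held TATAAA and 7 held the octamer ATTTGCAT, each searched on both strands. In the promoters of RefSeq (GRCh38, 250 bp before to 50 bp after the start), 48 of the 53 histone genes were found, and H2AC12, H3C11, H3C12, H4C1 and H4C3 were not in the set. TATAAA was in 31 of these 48 against 11.5% of all 35116 promoters, and CCAAT in 41 of 48 against 34.6%. ATTTGCAT was in 20 of 48 against 1.77% of all promoters, namely in 8 of 10 H2A promoters, 11 of 14 H2B promoters, 1 of 8 H3 promoters and none of those of H1 or H4. CCAAT was in every H1, H2A, H2B and H3 promoter searched but in 3 of 10 H4 promoters. The H2A and H2B genes of a pair share their spacer, so a match in it can be counted for both genes and these promoters are not independent. These matches describe the letters and were not tested for binding.

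In the whole 2 Mb, 779 of 4000 windows were in the table, or 19.5% (95% Wilson interval 18.3 to 20.7), beside 17.6% of all autosomal windows. Windows of the same CpG number and GC content on the autosomes were in the table at a predicted 18.5%, which gave a ratio of observed to predicted of 1.05 (0.986 to 1.12). The interval holds 1. Among the 2736 windows in which each of 5 sampled sequences of 50 bases, the read length, occurs once in the genome, 20.5% were in the table and the ratio was 1.19 (1.10 to 1.28), which excludes 1, though here the prediction still came from all autosomal windows, unique or not. The 2 Mb before it had 12.45% of its windows in the table with a ratio of 0.816, and the 2 Mb after it 13.8% with a ratio of 0.798. Among the 84 blocks of 2 Mb on chromosome 6 the region ranked 28 by share and 30 by ratio. All intervals here cover counting over windows, and since adjacent windows share fragments and are not independent, they are narrower than an interval over independent sites would be.

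The histone genes fell into 3 clusters, in which neighbouring starts are at most 100 kb apart. Cluster 1 ran from 26017260 to 26285762 with 32 genes, cluster 2 from 27100095 to 27115341 with 5 genes and cluster 3 from 27775257 to 27861669 with 16 genes. In the 3 clusters 161 of 740 windows were in the table, or 21.8% (18.9 to 24.9), against 618 of 3260, or 19.0% (17.6 to 20.3), in the rest of the 2 Mb. The difference was 2.80 percentage points (95% Newcombe interval -0.343 to 6.18) and was not distinguishable from 0. It fell to 0.0941 points (-3.45 to 3.92) among the windows unique in all sampled sequences. The ratio of observed to predicted was 1.07 (0.931 to 1.22) in the clusters and 1.05 (0.974 to 1.12) in the rest. With CpG number alone as the predictor both ratios turned to below 1, at 0.825 (0.718 to 0.943) and 0.880 (0.819 to 0.944).

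Along the region, the share in 100 kb bins ranged from 1.5% (3 of 200 windows) to 41.0% (82 of 200). The highest bin, from 27500001, had no histone gene, and the next, from 27600001 with 77 of 200 windows, had none either. The 3 bins of cluster 1 were alike, with 45, 46 and 48 of 200 windows in the table. The lowest bin began at 26800001, where 98.0% of windows had at least 1 sampled sequence that is not unique, and reads with more than 1 position were not kept in the mapping. The longest stretch with no window in the table, 182 windows or 91.0 kb from 26758501 to 26849500, reached into this bin, and 2.198% of its windows were unique in all sampled sequences. Over the 2 Mb 68.4% of windows were unique in this sense and 20.5% of them were in the table, against 17.2% of the others. In the histone clusters the order was the other way, with 20.6% (17.5 to 24.0) of unique windows and 26.3% (20.0 to 33.8) of the others in the table, and the intervals overlap. None of the 128 windows without any unique 50-base sequence was in the table, which the mapping rule largely fixes in advance.

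The clusters were then taken one by one. In cluster 1, 128 of 537 windows were in the table, or 23.8% (20.4 to 27.6), in cluster 2 6 of 31, or 19.4% (9.19 to 36.3), and in cluster 3 27 of 172, or 15.7% (11.0 to 21.9). Cluster 1 was above cluster 3 by 8.14 percentage points (1.08 to 14.2), but among unique windows by 5.56 points (-2.66 to 12.4), which does not exclude 0. Its ratio to the prediction was 1.19 (1.02 to 1.38) and that of cluster 3 was 0.732 (0.514 to 1.02). With CpG number alone as the predictor, the ratio of cluster 1 was 0.928 (0.795 to 1.08), so its excess over the prediction depended on the GC term. The longest run within a cluster was 8 windows from 26254001 to 26258000, in cluster 1. The longest runs of the 2 Mb were 9 windows, from 26316001 to 26320500 and from 26548501 to 26553000, both outside the clusters.

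The difference between the clusters and the rest depended on the CpG content of a window. Among windows with 16 to 30 CpG sites, 20.3% of 128 cluster windows were in the table against 43.8% of 304 windows in the rest of the region, a difference of -23.4 points (-31.7 to -13.9). In this class the autosomes had 51.1%, without regard to GC content. Composition predicted 32.4% for the cluster windows, a ratio of 0.628 (0.440 to 0.868). It predicted 35.6% for the rest of the region, a ratio of 1.23 (1.08 to 1.39), so the rest lay above its prediction. At low CpG number the order of clusters and rest was the opposite. Among windows with 0 to 2 CpG sites, 9.41% of 170 cluster windows were in the table against 4.44% of 1013 others, a difference of 4.97 points (1.15 to 10.4), and with 3 to 7 CpG sites 24.0% of 271 against 17.04% of 1326, a difference of 6.94 points (1.79 to 12.7). The last difference was 5.16 points (-0.764 to 11.8) among unique windows and then no longer excluded 0, whereas that for 16 to 30 CpG sites widened to -35.8 points (-45.1 to -24.5). With 8 to 15 CpG sites the shares were 37.3% and 36.2%, and with 31 or more, where there were 37 and 29 windows, the difference of 7.36 points (-7.84 to 21.5) was not distinguishable from 0.

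Few windows at the histone genes themselves were in the table. Of the 53 windows with a midpoint inside a histone gene, 4 were in the table, or 7.55% (2.97 to 17.9), where composition predicted 33.5%, and the ratio was 0.225 (0.0887 to 0.533). The other cluster windows had 22.9%, and the difference was -15.3 points (-20.9 to -4.57). Among windows with 16 to 30 CpG sites, 13.04% of 23 gene body windows were in the table against 43.8% of 304 windows in the rest of the 2 Mb, a difference of -30.7 points (-40.9 to -10.9). With 31 or more CpG sites, the share was 3.45% both for the 29 gene body windows and for the 29 windows of the rest (difference 0, -14.02 to 14.02), so that at this CpG number the genes were not set apart from the rest of the region. Both fell below the 34.5% of autosomal windows in this class, the gene bodies by -31.0 points (-33.9 to -17.3). Some histone genes are near-identical copies, and the mapping kept reads with 1 position. Of the body windows, 43 were unique in all sampled sequences and 4 of them were in the table, or 9.30% (3.68 to 21.6), while none of the other 10 was. The share stayed between 5.41% and 9.52% when each cluster in turn was left out. Set against all autosomal windows without regard to composition, the ratio was 0.429 (0.169 to 1.02). The gene body windows are largely the same as those 0 to 500 bp downstream of a start, described below. For those downstream windows, windows of other genes matched for CpG number and GC content had 17.2% in the table. The interval of the matched histone windows (3.09 to 18.5) holds that share.

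Away from the genes the clusters showed the opposite. Cluster windows over 1000 bp from a histone start were in the table at 24.1% (138 of 573) with a ratio of 1.34 (1.16 to 1.55), and those within 1000 bp at 13.8% (23 of 167) with a ratio of 0.483 (0.328 to 0.695). The difference of the near from the far windows was -10.3 points (-16.1 to -3.41). The far windows of cluster 1 had a ratio of 1.49 (1.27 to 1.73) and those of cluster 3 one of 0.773 (0.50 to 1.16). With CpG number alone as the predictor the ratio of all far windows was 1.12 (0.968 to 1.29), which no longer excludes 1. Ratios above 1 also occurred away from the starts of other autosomal protein-coding genes. There the ratio was 1.54 at 1500 to 2000 bp downstream and 1.37 at 4500 to 5000 bp downstream. The excess of the far windows was thus not shown to be particular to the histone clusters.

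Windows were then placed by distance from the nearest histone start and compared with the starts of the other autosomal protein-coding genes. The 53 windows at 0 to 500 bp downstream were largely the windows inside the genes, so this bin is not a separate result. Of these 53 windows, 4 were in the table, or 7.55% (2.97 to 17.9), against 25.4% at other genes, a difference of -17.9 points (-22.5 to -7.56). For the 51 of these windows that had other genes' windows of the same CpG number and GC content to be set against, the shares were 7.84% (3.09 to 18.5) and 17.2%. The interval holds the matched share, so the difference at 0 to 500 bp was not distinguishable from 0 once composition was matched. At 500 to 0 bp upstream, 3 of 41 were in the table, or 7.32% (2.52 to 19.4), against 37.5% (36.8 to 38.2). At 1000 to 500 bp upstream, the share was 9 of 28, or 32.1% (17.9 to 50.7), beside 49.7% at other genes, and the difference of -17.6 points (-31.8 to 0.936) did not exclude 0. Downstream the share was 15.1% (7.85 to 27.1) at 500 to 1000 bp, 28.9% (17.7 to 43.4) at 1000 to 1500 bp, 45.5% (31.7 to 59.9) at 1500 to 2000 bp and 48.8% (34.3 to 63.5) at 2000 to 2500 bp. At other genes these bins had 38.3%, 46.0%, 43.6% and 40.2%. From 1500 to 2500 bp the histone intervals hold the shares of other genes. At 2000 to 2500 bp, the highest bin of the histone profile, the observed share was 2.52 times the predicted one (1.77 to 3.28), while at other genes the ratio was 1.49 (1.46 to 1.52). Farther out the share was 34.3% at 2500 to 3000 bp, 12 of 30 windows at 3000 to 3500 bp, and 15.4%, 26.1% and 20.0% in the next bins to 5000 bp. At 3500 to 4000 bp the ratio was 1.00 (0.401 to 2.19). As the histone genes are about 500 bp long, the windows past 1000 bp lie beyond their ends.

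The low share at the start was not shown to be particular to histone genes within this stretch of chromosome 6. For the other protein-coding genes of the same 2 Mb, 1 of 17 windows at 0 to 500 bp downstream was in the table, or 5.88% (1.05 to 26.98), and the histone genes differed from them by 1.66 points (-19.9 to 13.1). Histone genes elsewhere gave no window of the table at the start. Of the 16 windows at 0 to 500 bp downstream of H2A, H2B, H3 and H4 genes outside the 2 Mb, none was in the table (95% upper limit 19.4%), and of the 14 windows that hold such a start none was either (upper limit 21.5%). Uniqueness was computed only within the 2 Mb, so whether reads could be placed at these outside genes was not tested.

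Read by the window that holds the start, 3 of 46 windows with a histone start were in the table, or 6.52% (2.24 to 17.5), beside 27.9% for other autosomal protein-coding genes, a difference of -21.4 points (-25.7 to -10.4). Among start windows with 16 or more CpG sites, the shares were 6.98% of 43 and 24.5% of 13541, with a mean of 28.6 and 45.7 CpG sites, so that the classes were not alike in CpG number. The 3 windows were those of H1-1, H2BC3 and H1-6 shown above. Their gene bodies were among the 4 with the fewest CpG sites per length of the 53: H1-6 with 2.90, H2BC3 with 3.90 and H1-1 with 4.10 CpG per 100 bp, beside a median of 7.14. The remaining one, H1-3, with 3.99 CpG per 100 bp, had no window of the table within 1000 bp of its start, and none of the other 49 genes had its start window in the table. This grouping by CpG density was made after the values had been seen.

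The promoter was taken as the 3000 bp upstream of the start. It held at least 1 window of the table in 34 of 53 histone genes, or 64.2% (50.7 to 75.7), beside 76.0% of 19142 other autosomal protein-coding genes. In the 1000 bp upstream, 10 of the 53 had a window in the table, or 18.9% (10.6 to 31.4), beside 56.3% of the other genes, a difference of -37.4 points (-45.7 to -24.9). From 1000 bp upstream to 500 bp downstream of the start, 40 of the 53 had none, or 75.5%, beside 38.5% of the other genes. The nearest window midpoint in the table was over 1000 bp from the start for 36 of them, or 67.9%, beside 31.3% of the other genes. These counts of genes were not matched for composition. Nor are the genes independent. In each of the 9 head-to-head pairs the genes share their upstream DNA, and part of what lies upstream of one gene is its partner. The same windows are thus counted for both, and the intervals over genes are too narrow. By family, a promoter window was in the table for 5 of 6 H1, 9 of 11 H2A, 8 of 14 H2B, 4 of 10 H3 and 8 of 12 H4 genes. A window overlapping the gene was in the table for 2 genes each of H1, H2B, H3 and H4 and for none of the 11 H2A genes, and differences between families were not tested.

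The 6 H1 genes, which encode the linker histones, ranged widely. From 1000 bp upstream to the gene end, H1-1 had 2 of 3 windows in the table and H1-6, the testis-specific member, 2 of 4. H1-4 had 1 of 4, which was upstream of its start, and its own start window had 45 CpG sites and was not in the table. H1-2 had 0 of 3, H1-3 0 of 3 and H1-5 0 of 4. The nearest window in the table was 112.5 bp from the start in H1-6, 235.5 bp in H1-1, 806.5 bp in H1-4, 1052.5 bp in H1-2, 2884.5 bp in H1-5 and 4464.5 bp in H1-3. All 6 were unique throughout in sequences of 50 bases. H1 bodies had a median of 4.81 CpG per 100 bp, against 7.14 for H2A, 6.14 for H2B, 7.94 for H3 and 7.91 for H4.

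In each core family the gene with the most and the gene with the fewest windows in the table over the same span are given, the one at the lowest coordinate where several were equal. H4C13 equalled H4C4, H2AC16 equalled H2AC14, H2BC14 equalled H2BC3, and most genes of each core family had none. Among H2A genes H2AC14 had 1 of 3, upstream of its start, and H2AC4 0 of 3. Among H2B genes H2BC3 had 1 of 3 and H2BC4 0 of 3. Among H3 genes H3C12 had 1 of 3, over the gene itself, and H3C1 0 of 3. Among H4 genes H4C4 had 2 of 3, both upstream of its start, and H4C1 0 of 3. H4C4 and H4C1 were alike in uniqueness, with all their 50-base sequences occurring once, so that reads from both could be placed. H4C12 and H4C11, chosen here after their values were seen, had 7.40% and 7.94% of their 50-base sequences unique, and no window over either gene was in the table. Of the 53 genes, 30 were unique throughout, and H2AC14 and H2AC13 had 33.7% and 36.5% of their sequences unique.

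Genes of other families lie between the histone clusters. Of a list of 19 neighbours, 14 start within the 2 Mb, and TRIM38 and the transporter genes SLC17A1, SLC17A2, SLC17A3 and SLC17A4 start outside. At least 1 promoter window was in the table for 9 of the 14, beside 76.0% of other autosomal protein-coding genes. The start window was in the table for 1, BTN1A1, a butyrophilin of the milk fat globule, where it has 9 CpG sites, beside 27.9% of start windows elsewhere. None of the 7 genes with 30 or more CpG sites in the start window had it in the table: HFE, a regulator of iron uptake that lies inside cluster 1, HMGN4, a nucleosome-binding protein, ABT1, ZNF322, POM121L2, ZNF391 and ZNF184. Elsewhere on the autosomes 21.2% of such start windows were in the table. HMGN4 and ABT1 each had 4 of 6 promoter windows in the table, while HFE, BTN3A1, ZNF322, POM121L2 and ZNF391 had 0 of 6. Over the gene bodies, where 22.5% of windows were in the table at other autosomal protein-coding genes, the share ranged from 0 of 51 windows in ZNF322, which has 81.3% of its 50-base sequences unique, 0 of 26 in BTN3A2 and 0 of 8 in POM121L2 to 7 of 23 in BTN2A2, or 30.4%. Among the butyrophilin genes, BTN1A1 had 6 of 20, BTN2A1 3 of 24, BTN3A1 1 of 26 and BTN3A3 2 of 26. PRSS16, a serine protease of the thymus, had 2 of 18 and HFE 4 of 22.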

How the data were processed

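Per the labels and the methods, genomic DNA of FaDu cells was enriched for modified cytosine and sequenced as single reads of 50 bases. Mapping by the authors used Bowtie 0.12.7 and hg19. They kept unique and monoclonal reads and counted them with MEDIPS in 500 bp windows. The deposited table gives the start and stop of each window, which were used as positions (no other unit), and 4 value columns that match no sample and were not used, so depth per library is unknown and no condition was compared. Groups were taken from the labels, with 1 library each.

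CpG number, GC content and exact-match uniqueness of 5 sampled 50-base sequences per window were computed from GRCh37. Predicted shares are those of autosomal windows with the same CpG number (40 or more as 1 class) and GC in steps of 25 bases. Gene models were GENCODE version 44 lifted to GRCh37 (canonical transcripts), with 3 genes placed by their RefSeq promoter and 1 renamed by its RefSeq synonym. Shares carry 95% Wilson intervals and differences Newcombe intervals. No significance test was run. In each family the genes with the most and the fewest windows in the table were named, with all H1 genes and a list of neighbours, lowest coordinate first in ties. The region and the gene lists were chosen with earlier results of these data known, and windows within the region by position. The ratio was checked on simulated data with known factors. Alternatives changed the clusters, prediction, uniqueness, overlap, promoter and start. The tools were NumPy 2.4.6, Numba 0.67.0, SciPy 1.17.1, Matplotlib 3.10.9 and pandas 2.3.3 under Python 3.11.15.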

Additional observations from a re-analysis of the deposited data

How the results depend on the processing

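Of 60 values under alternatives, 49 stayed within the interval of the reported value, or within 1.5 times it for a count of genes, and 11 moved outside it. Clusters built from starts within 50 or 200 kb held the same windows and gave the same values. These values are counted among the 49 although they could not move. Clusters widened by 5 kb gave a difference from the rest of 3.0 points (-0.0617 to 6.27). Held to unique windows, the rest of the 2 Mb had 20.5% of its windows in the table with a ratio to the prediction of 1.21. With CpG number alone as the predictor, the ratios were 0.825 in the clusters and 0.880 in the rest, and with no prediction that of the clusters was 1.24. With a promoter of 1000 bp 10 histone genes had a window in the table, and with 500 bp on each side of the start 7. The whole region had 20.5% of unique windows in the table. Alternatives on single CpG classes and with 1 cluster left out, and the alternative ratios of cluster 1, cluster 3 and the windows far from starts, were added once the data had been seen. So were those on unique windows for the 0 to 500 bp bin and for cluster 1 against cluster 3. Alternatives on gene bodies were also added then, except any overlap with the gene (10.0%) and the addition of histone pseudogenes (8.47%), which had been planned. No paired analysis was possible because the value columns could not be tied to samples. Read depth is unknown, and whether uniqueness, the rule for keeping windows or copy number of this line sets which windows are in the table was not tested.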
